A study of Capra hircus and Bos taurus with 7 samples.

Results

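Among the 364 mature microRNAs (miRNAs) counted in vesicles from milk powders, 9 carry the names miR-25, miR-92a, miR-92b, miR-93, miR-106b, miR-17, miR-18a, miR-19b or miR-20a. They were taken by name, without the species prefix and the arm, and each name matched 1 row; miR-17 is listed as miR-17-5p and the others without an arm, under bovine names such as bta-miR-25, bta-miR-92a, bta-miR-93 and bta-miR-106b, written here without the prefix. MiRNAs are short RNAs that repress mRNAs they pair with, mainly through the seed, the bases near their 5′ end. Extracellular vesicles are membrane-bound particles that cells release, and in milk they carry miRNAs. Small RNA was sequenced from vesicles separated by size exclusion chromatography from powders dissolved in warm water. The 7 libraries comprised 1 from a commercial bovine (Bos taurus) powder, 3 from skimmed goat (Capra hircus) powder and 3 from whole goat powder, and the goat libraries of each powder carry the letters A, B and C. The labels give no breed, herd, lot, fat content or heat treatment. Nothing in the labels says that the lettered libraries are separate packs or isolations, so the p-values here reflect how much these libraries scatter, and that scatter may be technical.

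The 9 miRNAs belong to a family studied in human and mouse cells as promoters of growth and survival. The miR-17-92 cluster is made as a single transcript that yields miR-17, miR-18a, miR-19a, miR-20a, miR-19b and miR-92a, and the miR-106b-25 cluster, with miR-106b, miR-93 and miR-25, lies inside an intron of MCM7, a gene of DNA replication. By seed the family divides otherwise: miR-25, miR-92a and miR-92b share a seed, as do miR-17, miR-20a, miR-93 and miR-106b, whereas miR-18a and miR-19b have seeds of their own. In the goat gene table (RefSeq, ARS1.2) all 9 names matched a gene. MIR106B, MIR93 and MIR25 lay next to each other inside the bounds of MCM7, and MIR17, MIR18A, MIR19A, MIR20A, MIR19B and MIR92A formed a second row of neighbours. A gene named MIR92B lay between MIR363 and MIR20B in another row, with MIR18B and MIR106A. Whether the counted miR-92b comes from that gene or another was not settled, so miR-92b was compared by seed and not by cluster. The table served for names and neighbours only. The mature sequences were not used here, and the seed groups are those known from other mammals.

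Library totals ranged from 5675489 to 11963849 miRNA reads, and levels are given as counts-per-million (CPM) of miRNA reads. Reads were counted per mature miRNA from a narrow range of sizes selected on a gel, so levels were not scaled by length; differences in how well each sequence enters a library are not corrected. The powders held the miRNAs common in milk vesicles (13 rows), at a summed 554378 CPM in the bovine library, 529343 to 538309 CPM in skimmed and 517483 to 536982 CPM in whole goat libraries. The 9 miRNAs together took 6.11% of the reads of the bovine library, 2.61% to 3.14% of those of skimmed and 2.19% to 3.42% of those of whole goat libraries. Their levels spanned several orders of magnitude, with miR-92a and miR-25 far above the other 7 in every library. By goat mean miR-93 and miR-106b came next, at 446 and 146 CPM, and the other 5 averaged 13.5 to 81.3 CPM; in the bovine library miR-92b and miR-19b stood above miR-106b and miR-93.

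**Figure D1:**
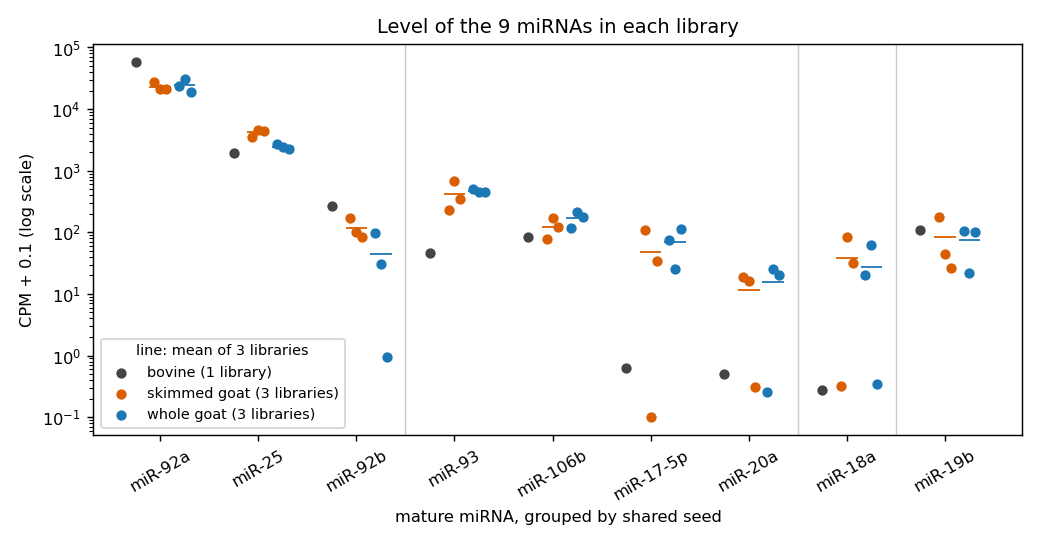
Level of each of the 9 miRNAs as CPM plus 0.1 on a log axis; each point is a library, lines are means of 3 goat libraries, and vertical lines part the seed groups. The miR-25 points of skimmed powder (3557 to 4600 CPM) lie above those of whole powder (2219 to 2715 CPM), and miR-92a is highest in the bovine library (58611 CPM).

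The seed group of miR-25 and miR-92a was led in every library by miR-92a, which in human endothelial cells represses the integrin subunit ITGA5. It stood at 58611 CPM in the bovine library (95% Poisson interval 58412 to 58810), at 27104, 21509 and 20919 CPM in skimmed A, B and C, and at 24098, 30897 and 18804 CPM in whole A, B and C. The bovine value was above all 6 goat libraries, and the goat powders overlapped. It was 5th of 364 miRNAs in the bovine library and 12th to 14th in the goat libraries. In edgeR's quasi-likelihood test on the goat libraries its log2 fold change, skimmed over whole, was 0.02 ± 0.19 (SE), with an adjusted p of 0.97. The sign of so small a value turned with the scaling, to -0.13 with upper-quartile scaling, -0.09 with library totals and -0.02 with DESeq2 size factors.

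The other abundant member of that seed group, miR-25, which in human cells represses the mitochondrial calcium uniporter MCU, rose in skimmed powder. It had 1967 CPM in the bovine library (95% Poisson interval 1931 to 2004), 3557, 4600 and 4486 CPM in skimmed A, B and C, and 2715, 2433 and 2219 CPM in whole A, B and C. All 3 skimmed libraries were above all 3 whole libraries, and the bovine library was below all 6 in CPM, though within the goat range after TMM scaling over the 7 libraries. The means were 4214 ± 572 CPM in skimmed and 2456 ± 248 CPM in whole powder (SD, n = 3 each). The log2 fold change was 0.87 ± 0.13 (SE), with an adjusted p of 0.035 over 209 miRNAs in edgeR. It was the 1 miRNA called higher at an adjusted p of 0.05, or 0.478% of those tested, and 0 were called lower (10 at an unadjusted p under 0.05 in edgeR; 7, or 3.47%, by DESeq2's Wald test). DESeq2's Wald test called miR-25 as well, with an adjusted p of 0.00014, among 5 higher miRNAs (2.48% of 202). The edgeR call was lost without skimmed B (adjusted p = 0.24), skimmed C (0.12), whole A (0.072), whole B (0.16) or whole C (0.082), and held without skimmed A (0.035), while the log2 fold change stayed between 0.81 and 0.94 in these 6 fits. Other scalings also ended it (upper-quartile 0.075, library totals 0.059, DESeq2 size factors 0.058), as did the library letter taken as a replicate block (0.11). The adjusted p stayed under 0.05 with limma-voom (0.037). In edgeR it did so with no filter on low counts (0.028), a mean of at least 100 CPM (0.011) and all 7 libraries in one fit (0.029). With DESeq2's Wald test and the fit without skimmed A, 6 of 15 alternatives kept the call.

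Of the 9 miRNAs, miR-25 was the 1 whose CPM did not overlap between skimmed and whole powder, where 20.1% of the 209 tested miRNAs did not. No label ties the 2 goat powders to a common milk, so removal of fat and other differences between the powders cannot be told apart. In a bulk vesicle library, more vesicles of a kind and more of a miRNA per vesicle cannot be told apart either. The summed epithelial markers (7 rows) did not overlap between the powders, at 104578 to 113778 CPM in skimmed and 98499 to 103801 CPM in whole libraries. Of the 7, miR-200c and miR-375 were higher in all skimmed than in all whole libraries, and miR-141 and miR-200a were lower. Summed leukocyte and platelet markers (8 rows; 22752 to 25198 CPM in skimmed, 21551 to 25501 CPM in whole) and erythroid markers (5 rows; 17687 to 21324 CPM in skimmed, 19496 to 20505 CPM in whole) overlapped. Most of the leukocyte sum was miR-146b; miR-223 was higher in all skimmed libraries (1503 to 1722 CPM, against 1154 to 1211 CPM in whole) and miR-150 was lower (0 to 0.121 CPM in skimmed, 7.30 to 17.8 CPM in whole). Nearly all of the erythroid sum was miR-16a and miR-16b, near-identical names that other cells also carry. Of the 7 names on the erythroid list, miR-451 and miR-144 had no row. The part of these markers in the miR-25 result was not tested.

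The remaining member, miR-92b, was low and uneven in goat and reached place 79 of 364 in the bovine library. Its estimated reads were 1524 in the bovine library, 1593, 836 and 671 in skimmed A, B and C, and 650, 315 and 10 in whole A, B and C. In CPM this was 268 in the bovine library, above all goat libraries, 84.4 to 172 in skimmed and 0.836 to 99.1 in whole powder. The goat powders overlapped, and the log2 fold change of 1.55 ± 1.38 (SE; edgeR adjusted p = 0.89) was 0.98 without whole C and 3.04 without whole A. It also moved with the method, to 3.54 ± 1.56 (SE, limma-voom adjusted p = 0.33) and to 2.74 with the replicate block in edgeR.

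Seed groups here hold only names among the 9, so miR-32 and miR-363, which share the seed of miR-25, are left out. Within the seed group, miR-25 took 3.23% of the reads in the bovine library, 11.5%, 17.5% and 17.6% in skimmed A, B and C, and 10.1%, 7.29% and 10.6% in whole A, B and C. The share of miR-92a was 96.3% in the bovine library, 82.1% to 87.9% in skimmed and 89.4% to 92.6% in whole libraries. Neither share overlapped between the goat powders (exact two-sided permutation p = 0.1 each), and that of miR-92b was at most 0.556% in any library. The shares of miR-25 and miR-92a thus nearly make up the whole, so they are 1 result and not 2. The summed level of the group was 60846 CPM in the bovine library, and averaged 27510 ± 2899 CPM in skimmed and 27099 ± 6171 CPM in whole powder (SD, n = 3 each). The difference of 412 CPM between the goat powders had a p of 1 in an exact permutation test (two-sided; 1 after adjustment over the 2 seed groups), and with 3 libraries on each side 0.1 is the smallest p that test can give. Its sign turned without skimmed A (-1249 CPM) or whole C (-2626 CPM).

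**Figure D2:**
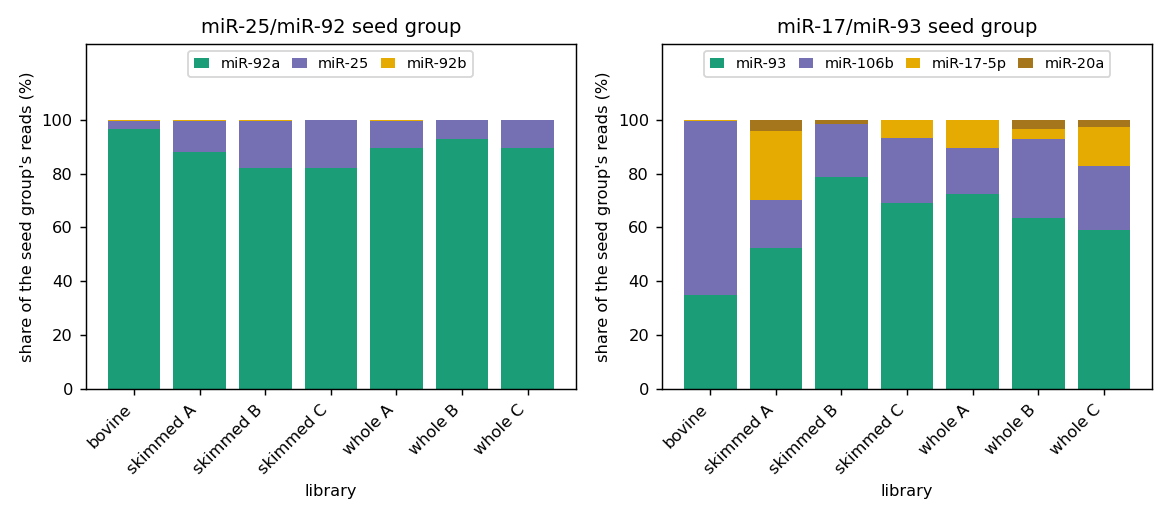
Share of the reads of each seed group held by each member, in percent, for every library; left, miR-92a, miR-25 and miR-92b, and right, miR-93, miR-106b, miR-17-5p and miR-20a. The miR-25 share is 11.5% to 17.6% in skimmed and 7.29% to 10.6% in whole libraries, and miR-106b leads the second group in the bovine library at 64.4%.

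The seed group of miR-17 was led in goat by miR-93, which with miR-106b is known in human cells to repress the cell cycle inhibitor CDKN1A. MiR-93 stood at 45.6 CPM in the bovine library (95% Poisson interval 40.2 to 51.5), at 226, 693 and 348 CPM in skimmed A, B and C, and at 505, 455 and 450 CPM in whole A, B and C. The bovine value lay below all goat libraries, at 259 reads, with the lowest goat library 4.96-fold higher. The skimmed libraries spread to either side of the whole ones: the log2 fold change was -0.07 ± 0.41 (SE; edgeR adjusted p = 0.97), and it became 0.18 without skimmed A and 0.05 without skimmed C. The SD of its log2(CPM + 1) was 0.81 between skimmed libraries and 0.09 between whole libraries, against medians of 0.28 and 0.27 over the 126 miRNAs with a goat mean of at least 100 CPM.

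MiR-106b stood at 84.4 CPM in the bovine library (95% Poisson interval 77.0 to 92.3), at 77.9, 169 and 121 CPM in skimmed A, B and C, and at 118, 212 and 179 CPM in whole A, B and C. The bovine value lay between skimmed A and the other goat libraries, and the goat powders overlapped. Its log2 fold change was -0.38 ± 0.65 (SE; edgeR adjusted p = 0.96).

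MiR-17-5p and miR-20a, which are known to repress the transcription factor E2F1 in human cells, were present in some goat libraries and near absent in others. MiR-17-5p had 3 reads in the bovine library, 1023, 0 and 274 reads in skimmed A, B and C, and 486, 259 and 1331 reads in whole A, B and C. A count of 0 in skimmed B allows a level of up to 0.362 CPM (3 reads), for counting error only. MiR-20a had 2 reads in the bovine library, 171, 133 and 2 in skimmed A, B and C, and 1, 259 and 244 in whole A, B and C. Both were near absent in the bovine library, but the goat library in which miR-17-5p was near absent was not among those in which miR-20a was. Reads that fit several near-identical names, such as miR-17-5p and miR-106a or miR-20a and miR-20b, could be divided between rows by the deposited counting. In skimmed B, where miR-17-5p had 0 reads, miR-106a had 1. In skimmed C and whole A, where miR-20a had 2 and 1 reads, miR-20b had 1 and 0. The part of such division in these low values was not tested, and the values are uncertain.

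The summed level of these 4 miRNAs was 131 CPM in the bovine library, and averaged 605 ± 240 CPM in skimmed and 725 ± 32.6 CPM in whole powder (SD, n = 3 each). The difference of -120 CPM between the goat powders had a p of 0.4 in the same exact permutation test (0.8 adjusted over the 2 seed groups). MiR-93 held 34.8% of the group in the bovine library, 52.3% to 78.9% in skimmed and 59.2% to 72.4% in whole libraries. The miR-25 group was more abundant than the miR-17 group in every library, 465-fold in the bovine library, 29.8-fold to 71.3-fold in skimmed and 27.6-fold to 46.5-fold in whole libraries.

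The members with seeds of their own were low. MiR-18a, known to repress connective tissue growth factor in tumour cells, had 1 read in the bovine library, 2, 696 and 253 reads in skimmed A, B and C, and 133, 624 and 3 reads in whole A, B and C. Its values did not follow those of miR-17-5p, its cluster partner: where miR-18a had 2 or 3 reads, miR-17-5p had 1023 and 1331. MiR-19b, which carries much of the cluster's tumour-promoting activity in mouse lymphoma, had 623 reads in the bovine library, 1634, 369 and 212 in skimmed A, B and C, and 686, 219 and 1191 in whole A, B and C. Both overlapped between the goat powders, with log2 fold changes of 0.60 ± 2.01 and 0.24 ± 1.10 (SE; edgeR adjusted p = 0.96 each). Leaving out 1 library turned the sign, to -0.70 for miR-18a without skimmed B, and for miR-19b to -1.06 without skimmed A and -0.21 without whole B.

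**Figure D3:**
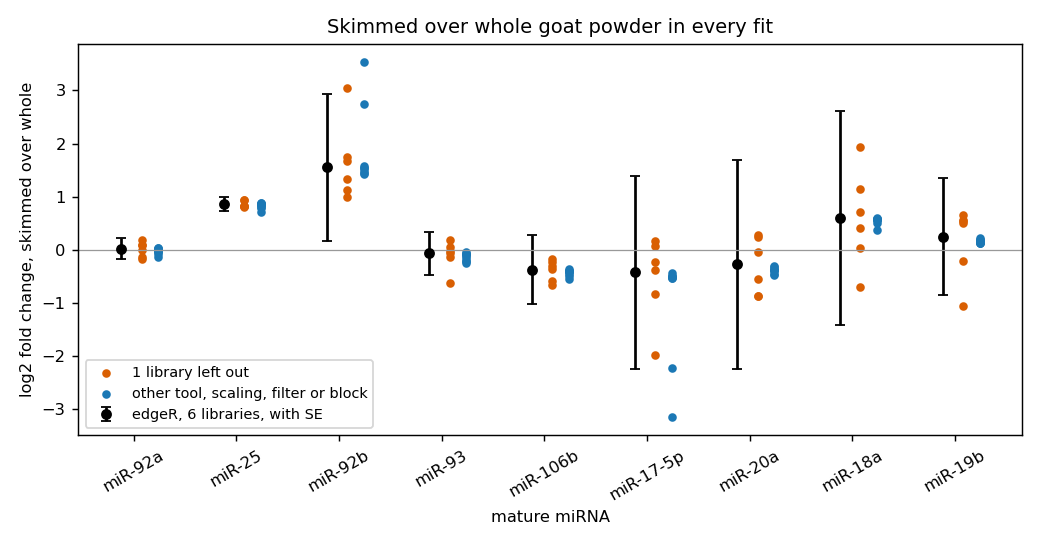
Log2 fold change of each miRNA, skimmed over whole goat powder; black points with bars are edgeR values with their SE, orange points are fits that leave out 1 library, and blue points are fits with another tool, scaling, filter or block. The miR-25 values lie between 0.72 and 0.94, and values of 7 other members lie on either side of 0 or have an SE above 1.

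Ratios between members within a library do not depend on how libraries are scaled. All pairs that share a cluster or a seed, and have at least 10 reads in every goat library, were compared, which gave 7 pairs among 6 miRNAs. In the miR-106b-25 cluster, miR-25 exceeded miR-93 by 43.1-fold in the bovine library, by 15.7-fold, 6.63-fold and 12.9-fold in skimmed A, B and C, and by 5.38-fold, 5.35-fold and 4.93-fold in whole A, B and C. The whole libraries lay close together, all below the skimmed ones, and the bovine library was above every goat library. The mean log2 ratio was 3.47 ± 0.65 in skimmed and 2.38 ± 0.07 in whole powder (SD, n = 3 each), a difference of 1.08 (exact two-sided permutation p = 0.1, the smallest possible; 0.23 adjusted over the 7 pairs).

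The ratio of miR-25 to miR-106b was 23.3 in the bovine library, 45.7, 27.1 and 37.1 in skimmed A, B and C, and 23.0, 11.5 and 12.4 in whole A, B and C. The skimmed libraries were again all above the whole ones, by 1.27 in the mean log2 ratio, and the bovine library lay between them. Set against its seed partner, miR-25 was 0.0336 of the level of miR-92a in the bovine library, 0.131, 0.214 and 0.214 in skimmed A, B and C, and 0.113, 0.0787 and 0.118 in whole A, B and C. This ratio did not overlap between the goat powders, with a difference of 0.84 in log2, and was lowest in the bovine library. Each of these 2 differences had an exact permutation p of 0.1 and 0.23 after adjustment. The 3 separated ratios share miR-25 and are not independent. Non-overlap of this kind was common for miR-25: 56.5% of its ratios to the 147 other miRNAs with at least 10 reads in every goat library did not overlap between the powders. The corresponding share was 14.3% for miR-92a, 2.72% for miR-93 and 9.52% for miR-106b.

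The other 4 pairs overlapped between the goat powders. MiR-93 over miR-106b, which share a cluster and a seed, had a ratio of 0.541 in the bovine library, 2.90, 4.09 and 2.87 in skimmed A, B and C, and 4.28, 2.14 and 2.52 in whole A, B and C. MiR-93 was thus the more abundant in all 6 goat libraries and miR-106b in the bovine library. The log2 difference between the goat powders was 0.19 (exact permutation p = 0.6, 0.7 adjusted). The other 3 pairs held a low, uneven miRNA. MiR-92a over miR-19b, paired through the miR-17-92 cluster, ranged from 154 to 785 in skimmed and from 189 to 1433 in whole libraries, with 534 in the bovine library. Counts of mature miRNAs do not show which gene made them, so whether all reads of this pair come from that cluster was not tested. MiR-25 over miR-92b differed by -2.27 in log2 (exact permutation p = 0.4) and by -0.33 without whole C, where miR-92b had 10 reads. MiR-92a over miR-92b differed by -3.12 (exact permutation p = 0.2) and by -1.28 without whole C.

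**Figure D4:**
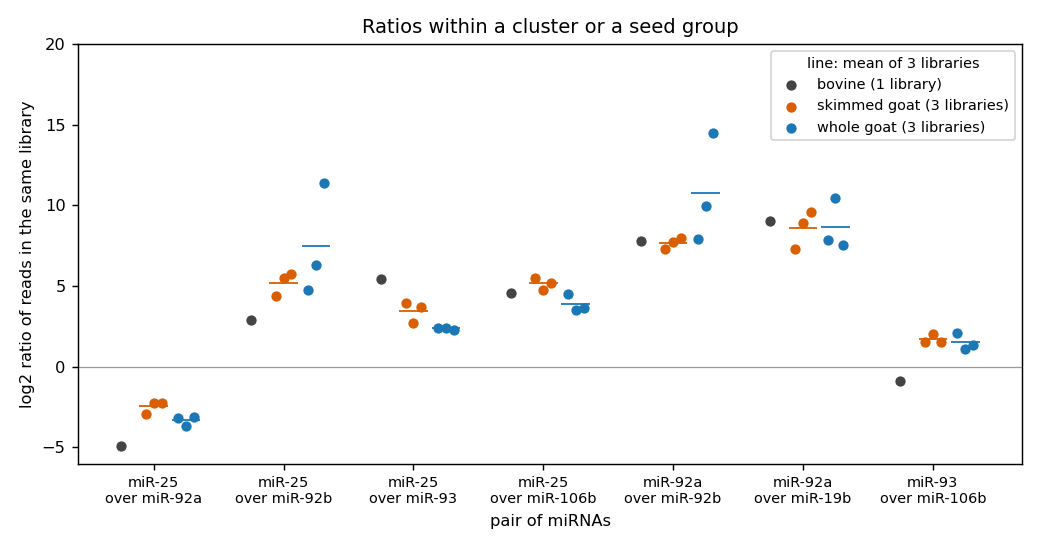
Log2 ratio of the reads of 2 miRNAs in the same library for the 7 pairs that share a cluster or a seed; each point is a library and lines are means of 3 goat libraries. The ratios of miR-25 to miR-92a, miR-93 and miR-106b are higher in every skimmed than in every whole library, and miR-93 over miR-106b is above 0 in goat and at -0.89 in the bovine library.

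The bovine powder gave a single library, so species, product and library cannot be told apart and no test was made between them. Of the 9 miRNAs, miR-92a and miR-92b lay above all 6 goat libraries, at 2.45-fold and 3.30-fold the goat mean. MiR-25, miR-93 and miR-18a lay below all of them in CPM. With TMM scaling over the 7 libraries miR-93 still did (59.3 CPM in the bovine library, 216 to 662 CPM in goat), while miR-25 (2554 CPM in the bovine library, 2168 to 4394 CPM in goat) and miR-18a lay within the goat range. Under that scaling miR-92a (76102 CPM in the bovine library, 18369 to 29279 CPM in goat) and miR-92b stayed above the goat range. For miR-25 and miR-93 the goat mean was 1.70-fold and 9.78-fold the bovine value, and miR-18a had 1 read. The other 4 lay within the goat range, of which miR-17-5p and miR-20a had 3 and 2 bovine reads. Such departures were common: of 126 miRNAs with a goat mean of at least 100 CPM, 24.6% lay above and 55.6% below all goat libraries in CPM, without TMM scaling. The 4 members of at least 100 CPM in goat ranged in log2 ratio, bovine over goat, from -3.26 for miR-93 to 1.29 for miR-92a. Their median was -0.77, as was that of all 126. The 126 include these 4, so the 2 medians are not independent. Marker sums moved as well. Leukocyte and platelet markers, mostly miR-146b, were at 933 CPM in the bovine library and 21551 to 25501 CPM in goat libraries. The erythroid list, nearly all miR-16a and miR-16b, was at 743 CPM in the bovine library and 17687 to 21324 CPM in goat libraries. The epithelial sum, at 106493 CPM, lay within the goat range of 98499 to 113778 CPM, but its rows moved both ways. MiR-200c (55374 CPM in the bovine library, 33936 to 44203 CPM in goat) and, barely, miR-200b lay above all goat libraries. MiR-375 (11535 CPM in the bovine library, 23879 to 33520 CPM in goat), miR-200a and miR-429 lay below all of them. MiR-141 and miR-205 lay within the goat range. The part of these markers in the bovine values was not tested.

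Likeness of profiles was measured as the root mean square difference of log2(CPM + 1), centred for each miRNA, over the 7 libraries. Nearest to miR-25 among 111 miRNAs (goat mean of at least 100 CPM and at least 10 reads in every library) were miR-30b-5p at 0.23, miR-151-3p at 0.28 and miR-30c at 0.32, against a median of 0.72. Its partners were not near: miR-106b was 52nd at 0.68, miR-92a 69th at 0.85 and miR-93 80th at 1.06. The bovine library enters these distances, and there miR-25 over miR-92a lay below all goat libraries and miR-25 over miR-93 above them. How far these places rest on that library was not tested. Nearest to miR-92a were miR-30f at 0.15, miR-425-5p at 0.27 and miR-99a-5p at 0.27, against a median of 0.81. MiR-25 was 59th from miR-92a at 0.85. MiR-30f had 21261 CPM in the bovine library, 6968 to 8961 CPM in skimmed and 7604 to 13524 CPM in whole libraries, so that, like miR-92a, it was highest in the bovine library and, within goat, in whole B.

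The wider family was given by 16 names, of which 15 had a row and miR-367 is not analysed here. Of these 15, 11 passed the filter on low counts. The 1 called higher was again miR-25, which was also the 1 called among all 209 miRNAs tested (0.478%). In the family 0 were called lower (0 at an unadjusted p under 0.05 in edgeR, 0 by DESeq2's Wald test) and 10 did not pass. Over all miRNAs 0 were called lower in edgeR and 3.47% of 202 by DESeq2's Wald test. The median log2 fold change was 0.018 over the 11 and 0.034 over all 209. MiR-32 and miR-363, which share the seed of miR-25, were uneven: miR-32 had 698 reads in the bovine library, 590, 596 and 102 in skimmed A, B and C, and 219, 6 and 1674 in whole A, B and C, and miR-363 had 0 reads in the bovine library, 702, 463 and 0 in skimmed, and 447, 6 and 5 in whole libraries. Of the 4 not tested, miR-106a reached 427 reads and miR-19a 572 reads in whole C, miR-20b reached 194 in whole B, and miR-18b had at most 1 read in any library. Swings from at least 100 reads in a goat library to at most 10 in another were seen for 9 of the 15 (60.0%) and for 4 of the 9 miRNAs described here (44.4%), against 123 of all 364 (33.8%). The 364 include miRNAs, such as miR-18b, that never reached 100 reads and so could not swing in this way. Each of the 9 did reach 100 reads, so the 33.8% is not a like background for them. The share among miRNAs able to swing was not computed. In these 15 miRNAs, values from 11 to 99 reads occurred in 1 goat library, for miR-106a in whole A.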

How the data were processed

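Total RNA of the vesicles was made into small RNA libraries, size-selected on acrylamide gel and sequenced as single-end reads of 50 bases, per the labels' protocols. Each deposited table lists estimated counts for 364 bovine miRNA names, per the file headers. Many estimated counts are fractions (36.9% to 46.7% of values above 0 are whole within 1e-06). The aligner and counter, like the miRNA reference and build, are among the steps not given in the sources used here.

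CPM was computed over all miRNAs of a library. Skimmed was tested against whole goat powder with edgeR 4.0.16 (R 4.3.3) on the 6 goat libraries: counts rounded, default low-count filter (209 miRNAs kept), TMM scaling (factors 0.928 to 1.07), quasi-likelihood test, Benjamini-Hochberg adjustment, threshold 0.05. The SE is the log2 fold change divided by the square root of F. DESeq2 1.42.0 (no independent filtering; 202 miRNAs given an adjusted p) and limma 3.58.1 were alternatives. Ratios and seed sums used exact permutation tests (scipy 1.17.1). Poisson intervals at 95% and floors of 3 reads cover counting error only, since reads copied by PCR, with no molecular identifiers, are not independent molecules. The fit was also run on simulated counts, whose outcome is not given here. The changes planted in them were larger than that of miR-25, so that run does not show how well changes of its size are found.

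Named miRNAs are the 9, the 16 names of the wider family and the 3 nearest profiles to miR-25 and to miR-92a. Members, lists and tests were chosen with earlier results of these data known.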

Additional observations from a re-analysis of the deposited data

How the results depend on the processing

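Relative to 1 miRNA higher and 0 lower in skimmed powder, upper-quartile scaling, library totals, DESeq2 size factors and the replicate block gave 0 higher. Limma-voom and a fit of all 7 libraries gave the same counts as the main fit. DESeq2's Wald test gave 5 higher and 7 lower, a mean of at least 100 CPM 2 and 2, and no filter 1 lower; with 1 library left out, 0 to 1 were higher and 0 lower. The log2 fold change of miR-92a turned to -0.13 with upper-quartile scaling, -0.086 with library totals, -0.023 with DESeq2 size factors or its Wald test, -0.048 with no filter and -0.0048 at 100 CPM, and that of miR-32 (-0.15) to 1.59 with limma-voom and 1.18 with the replicate block. Over the fits that left out 1 library, it ranged from -0.17 to 0.18 for miR-92a, -0.62 to 0.18 for miR-93, -2.00 to 0.16 for miR-17-5p, -0.70 to 1.93 for miR-18a, -1.06 to 0.66 for miR-19b, -0.88 to 0.28 for miR-20a and -0.75 to 1.65 for miR-32. The log2 ratio difference ranged from -0.57 to 0.89 for miR-92a over miR-19b and from -0.018 to 0.48 for miR-93 over miR-106b, and the summed CPM difference of the miR-25 seed group from -2626 to 3543. The differences of miR-25 over miR-92a (0.66 to 1.08), over miR-93 (0.83 to 1.45) and over miR-106b (1.08 to 1.59) kept their sign without any 1 library; with 2 libraries against 3, no exact p can be below 0.2. In the bovine library 3 members lay below the goat range; 1, miR-93, did with TMM scaling over 7 libraries and 5 against the whole libraries alone. The causes were not tested.

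Letters A, B and C of the 2 goat powders were checked as pairs. The deviations of same-lettered libraries from their powder means correlated across miRNAs at 0.18, 0.14 and 0.06, so the letters were not taken to pair libraries, although each library correlated best with its own letter, a hint from the data and not the design. With the replicate block miR-25 had a log2 fold change of 0.87 and an adjusted p of 0.11 in edgeR.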
